A study of Mus musculus with 6 samples.

Results

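The Nr4a and Egr transcription factors and the Nab corepressors were examined as a named set of 8 genes (Nr4a1, Nr4a2, Nr4a3, Egr1, Egr2, Egr3, Nab1 and Nab2) out of 19938 genes measured by array in BDC2.5 CD4 T cells of NOD mice. All 8 were measured, each by 1 probe set naming that gene alone, so no choice among probe sets was needed and no filter on low values was applied. NOD mice develop autoimmune diabetes, and the BDC2.5 T cell receptor recognises an antigen of pancreatic beta cells. Each of 3 groups had 2 arrays, called biological duplicates in the labels without the number of mice behind each. All mice were NOD females aged 7 weeks that carried transferred BDC2.5 T cells, and the cells were taken from the spleen as Thy1.1+CD4+ cells 14 h after injection. The DCIR2-BDC group received 100 ng of an anti-DCIR2 antibody carrying the BDC antigen, the DEC-BDC group 100 ng of an anti-DEC205 antibody carrying it, and the PBS group PBS only. DCIR2 and DEC205 are surface receptors of different dendritic cell subsets, to which the antibodies bring the antigen. No group received an antibody without antigen, so what the antigen did and what the antibody did cannot be told apart.

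Nr4a1 (Nur77), Nr4a2 (Nurr1) and Nr4a3 (Nor1) are orphan nuclear receptors, which act as transcription factors without a known physiological ligand and bind a DNA element called NBRE. Egr1, Egr2 and Egr3 are zinc finger transcription factors that bind GC-rich DNA. Both families are immediate-early genes of the T cell: engagement of the T cell receptor switches them on within the first hours through calcium and MAP kinase signals, and Nr4a1 reporters are widely used to read that signal. Egr2, Egr3 and the Nr4a receptors are also known as brakes on T cells, linked to anergy, tolerance and exhaustion. Nab1 and Nab2 are corepressors that bind Egr1, Egr2 and Egr3 and turn down what they activate, and Nab2 is itself an Egr target.

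Expression is given on a log2 scale, as deposited, and its precision is limited by the number of arrays. Medians of the 6 arrays lay between 5.43 and 5.56. Arrays of a group correlated at 0.974 to 0.982 across probe sets and those of different groups at 0.940 to 0.980. DEC-BDC array 2 correlated with the DCIR2-BDC arrays at 0.979 and 0.980, against 0.974 with DEC-BDC array 1. All 11 measured of 12 T cell markers lay above the median gene on every array. Their summed level (log2) was 13.62 and 13.63 on the DCIR2-BDC arrays, 13.96 and 14.05 on the DEC-BDC arrays, and 14.28 and 14.36 on the PBS arrays. Of the 11, 8 fell and 1 rose with DCIR2-BDC against PBS, while 1 fell and 1 rose with DEC-BDC. Marker calls are at a limma adjusted p below 0.05. At that threshold 7.82% of all genes fell and 10.1% rose with DCIR2-BDC, and 3.53% fell and 5.32% rose with DEC-BDC. The 8 natural killer cell markers summed to 8.08 and 8.12 with DCIR2-BDC, 8.40 and 8.44 with DEC-BDC and 9.04 and 9.07 with PBS. Their median member stood between percentiles 13.1 and 32.3 of genes on every array. With DCIR2-BDC 4 of them fell, by log2 changes of -2.62 (Klrd1), -1.15 (Gzma), -0.95 (Prf1) and -0.52 (Klrk1). Klrk1 (means 4.04 with DCIR2-BDC and 4.55 with PBS) and Gzma (4.06 and 5.21) lay below the array medians in both groups. With DEC-BDC 2 fell, Klrd1 (-1.54) and Prf1 (-0.97), and 1, Tbx21, rose (0.73). Ncr1, Klrb1c and Klre1 passed with neither antibody. For 9 B cell, 10 dendritic cell, 9 macrophage and monocyte and 8 neutrophil markers the median member stood between percentiles 24.0 and 48.3 of genes on every array, for 6 plasma cell markers between 23.5 and 36.5, and for 4 CD8 T cell markers between 41.3 and 59.9. In these lists 3 genes passed against PBS, each with both antibodies. The CD8 T cell marker Eomes rose by 1.06 with DCIR2-BDC and 1.64 with DEC-BDC on the log2 scale. The other CD8 T cell markers did not pass. Cd8a stood at -0.19 with DCIR2-BDC and 0.06 with DEC-BDC. Cd8b1 stood at -0.08 with DCIR2-BDC and -0.66 with DEC-BDC, and Gzmk at -0.55 with DCIR2-BDC and -0.30 with DEC-BDC. The plasma cell marker Prdm1 fell (-0.73 with DCIR2-BDC and -0.73 with DEC-BDC), as did the dendritic cell marker Ly75, the gene of DEC205 (-1.10 with DCIR2-BDC and -0.75 with DEC-BDC). The part of these markers in the results was not tested, and in sorted bulk cells fewer cells of a type cannot be told apart from less RNA per cell.

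The first question was which of the 8 genes differed from PBS after each antibody. With DCIR2-BDC 4 of 8 rose (Nr4a1, Nr4a2, Nr4a3 and Egr2) and 0 fell, where 17.9% of all genes passed, 10.1% upwards and 7.82% downwards. With DEC-BDC 6 of 8 rose (the same 4, Egr3 and Nab2) and 0 fell, where 8.84% of all genes passed, 5.32% upwards and 3.53% downwards. A gene passed at a limma adjusted p below 0.05 over all 19938 genes. At an unadjusted p below 0.05 there were 6 of 8 with DCIR2-BDC, as in 28.1% of all genes, and 6 of 8 with DEC-BDC, as in 20.7%. A change of at least 2-fold was seen in 4 of 8 with DCIR2-BDC (9.25% of all genes) and 5 of 8 with DEC-BDC (4.26%). The median log2 change of the 8 genes was 0.96 with DCIR2-BDC, beside -0.05 over all genes, and 1.44 with DEC-BDC, beside -0.03 over all genes. The arrays of 7 of 8 genes did not overlap between DCIR2-BDC and PBS, as in 55.3% of all genes, with 6 higher (23.4% of all genes) and 1, Egr1, lower (31.9%). Those of 8 of 8 did not overlap between DEC-BDC and PBS, as in 48.8% of all genes, with 7 higher (22.2%) and 1, Nab1, lower (26.5%). Both comparisons use the same PBS arrays. Members and genes of the pathway were chosen with earlier results of these arrays known.

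**Figure D1:**
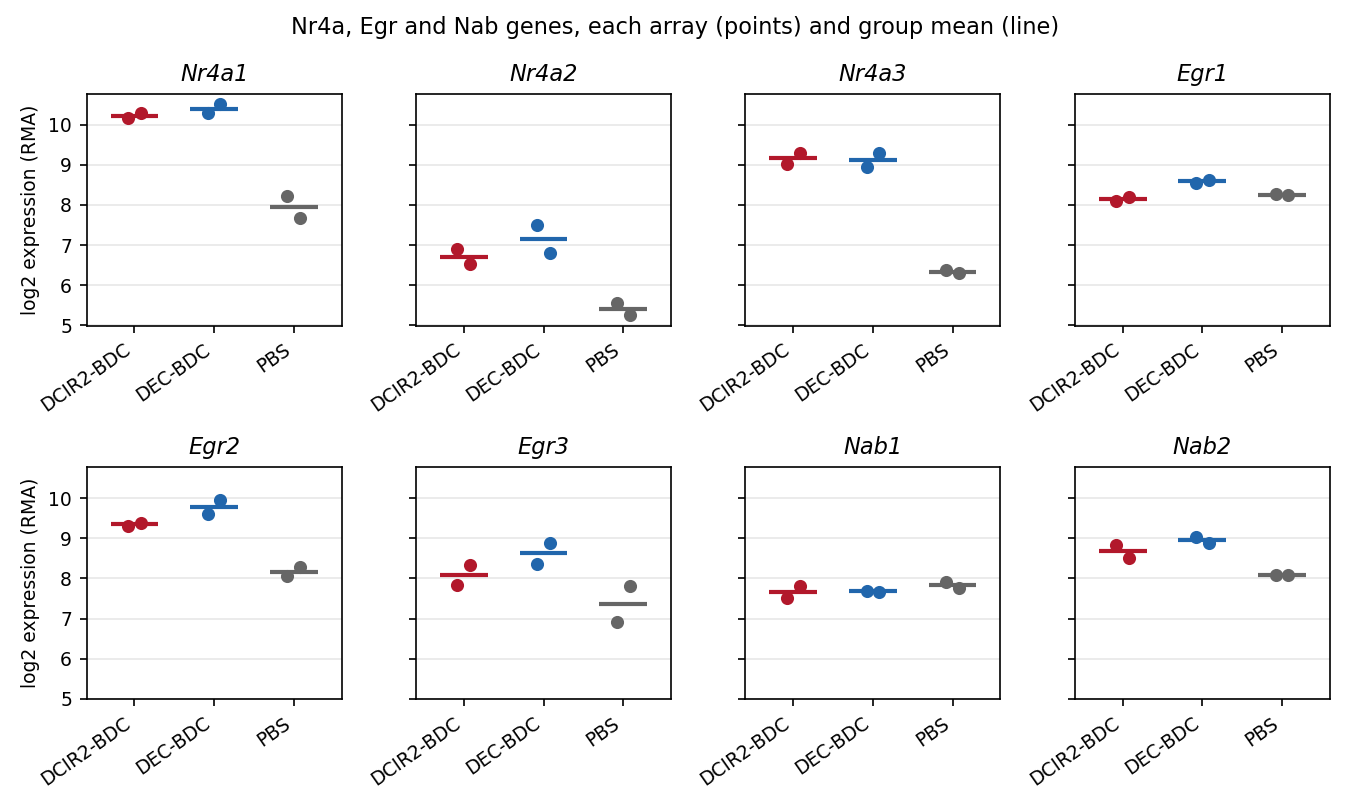
Log2 expression (RMA values, vertical axis) of the 8 genes on each array, by group (DCIR2-BDC, DEC-BDC, PBS; 2 points each), with the group mean as a line. The points of Nr4a1, Nr4a2, Nr4a3 and Egr2 after either antibody lie above both PBS points, while Egr1 and Nab1 range over only 0.52 (Egr1) and 0.39 (Nab1) log2 units across the 6 arrays.

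Among the nuclear receptors, Nr4a3 had the largest change. Its log2 value was 9.03 and 9.29 on the DCIR2-BDC arrays, 8.94 and 9.30 on the DEC-BDC arrays, and 6.39 and 6.29 on the PBS arrays. The lowest antibody array stood 2.55 log2 units above the highest PBS array, and the 2 antibody groups overlapped. Nr4a3 was 7.08-fold higher with DCIR2-BDC than with PBS (95% interval 5.19 to 9.65, adjusted p = 3.93e-05), the change ranked 25 from the top of all genes. With DEC-BDC it was 6.87-fold higher (5.04 to 9.37, adjusted p = 0.000251), ranked 6.

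Nr4a1, whose level reports recent T cell receptor signals, was already in the upper part of the genes with PBS, at percentile 88.7, and reached 98.8 with DCIR2-BDC and 99.1 with DEC-BDC. It had log2 values of 10.16 and 10.29 with DCIR2-BDC, 10.29 and 10.51 with DEC-BDC, and 8.22 and 7.66 with PBS. The antibody arrays were all higher than the PBS arrays and lay within 0.35 of each other. Nr4a1 was 4.88-fold higher with DCIR2-BDC than with PBS (3.59 to 6.65, adjusted p = 6.55e-05) and 5.51-fold higher with DEC-BDC (4.05 to 7.50, adjusted p = 0.000306). These changes ranked 86 with DCIR2-BDC and 12 with DEC-BDC.

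Nr4a2 started lowest in the order of genes, at percentile 43.4 with PBS, against 70.0 with DCIR2-BDC and 77.2 with DEC-BDC. It had log2 values of 6.90 and 6.52 with DCIR2-BDC, 7.50 and 6.81 with DEC-BDC, and 5.56 and 5.25 with PBS. The antibody groups overlapped, and neither overlapped PBS. Nr4a2 was 2.47-fold higher with DCIR2-BDC than with PBS (1.68 to 3.64, adjusted p = 0.00443), but did not pass without DCIR2-BDC array 1, where the adjusted p was 0.058 (0.000907 to 0.058 across all alternatives). With DEC-BDC it was 3.36-fold higher than with PBS (2.29 to 4.95, adjusted p = 0.00259).

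Since the 3 Nr4a genes rose together, the promoters that RefSeq gives for them on GRCm38.p6 are shown, from 250 bases before to 50 after the start, with Nr4a1 at chr15:101266596-101266895 (plus strand), Nr4a2 at chr2:57123954-57124253 (minus strand) and Nr4a3 at chr4:48045055-48045354 (plus strand). Capitals mark every match, on either strand, to TGACG (the half-site of the cyclic AMP response element, which CREB binds), to GCGGGGGCG (an Egr site) and to the MEF2 site:
Nr4a1: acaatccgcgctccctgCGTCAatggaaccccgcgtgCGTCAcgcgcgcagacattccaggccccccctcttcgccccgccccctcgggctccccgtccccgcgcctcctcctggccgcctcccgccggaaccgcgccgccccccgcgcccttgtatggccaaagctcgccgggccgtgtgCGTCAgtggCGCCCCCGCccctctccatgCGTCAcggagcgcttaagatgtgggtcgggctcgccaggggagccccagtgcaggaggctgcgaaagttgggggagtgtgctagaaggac
Nr4a2: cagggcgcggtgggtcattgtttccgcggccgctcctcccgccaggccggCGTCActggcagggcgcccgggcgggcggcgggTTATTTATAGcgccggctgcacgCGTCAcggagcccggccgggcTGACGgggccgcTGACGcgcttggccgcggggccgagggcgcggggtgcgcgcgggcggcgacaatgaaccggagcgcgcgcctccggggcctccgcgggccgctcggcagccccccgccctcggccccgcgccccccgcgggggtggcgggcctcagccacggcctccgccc
Nr4a3: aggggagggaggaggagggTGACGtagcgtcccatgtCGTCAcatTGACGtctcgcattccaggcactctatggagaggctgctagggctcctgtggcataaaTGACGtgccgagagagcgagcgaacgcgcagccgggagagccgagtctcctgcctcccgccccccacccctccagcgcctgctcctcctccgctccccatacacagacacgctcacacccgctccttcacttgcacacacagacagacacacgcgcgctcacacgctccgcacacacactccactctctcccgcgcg
Each of these windows holds 4 matches to TGACG. In Nr4a1 they begin at positions -233, -213, -69 and -40 from the start, in Nr4a2 at -200, -144, -123 and -111, and in Nr4a3 at -231, -213, -205 and -147. At least 1 such match is found in 20.8% of 32851 mouse windows of the same length, and 4 or more in 0.231%. The count of 4 was singled out after the matches were seen. Nr4a1 also holds GCGGGGGCG, found in 2.91% of windows, and Nr4a2 a MEF2 site, found in 3.19%. MEF2 factors are known to drive Nr4a1 in T cells. None of the 3 windows holds the full TGACGTCA (1.79% of windows), the NBRE AAAGGTCA (1.51%), GCGTGGGCG (0.612%), the AP-1 site TGANTCA (7.81%) or a CArG box (1.63%). A match is a string of letters and was not tested for binding.

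The Egr genes did not move as one. Egr2, which restrains T cell activation and is linked to anergy, had log2 values of 9.31 and 9.39 with DCIR2-BDC, 9.60 and 9.95 with DEC-BDC, and 8.05 and 8.29 with PBS. The 3 groups did not overlap, with DEC-BDC highest and PBS lowest. Egr2 was 2.27-fold higher with DCIR2-BDC than with PBS (1.71 to 3.01, adjusted p = 0.00136) and 3.05-fold higher with DEC-BDC than with PBS (2.29 to 4.05, adjusted p = 0.000939).

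Egr3, which acts beside Egr2 in T cells, had log2 values of 7.85 and 8.33 with DCIR2-BDC, 8.36 and 8.88 with DEC-BDC, and 6.91 and 7.81 with PBS. Its PBS arrays lay 0.90 apart, the widest gap within a group among the 8 genes, and PBS array 2 was only 0.04 below the lower DCIR2-BDC array. Array 2 had the higher value in every group. With DCIR2-BDC the 1.66-fold difference from PBS did not pass (1.03 to 2.66, adjusted p = 0.147). It passed without PBS array 2 (log2 change 1.18, adjusted p = 0.0247) and with the replicate number as a block (0.0207), range 0.0207 to 0.679 over the alternatives. With DEC-BDC Egr3 was 2.40-fold higher than with PBS (1.50 to 3.86, adjusted p = 0.0293). That call was lost without PBS array 1 (log2 change 0.82, adjusted p = 0.168), DEC-BDC array 2 (0.161), DCIR2-BDC array 1 (0.0524) or DCIR2-BDC array 2 (0.0532), and with only the 4 arrays compared (0.0525), range 0.00334 to 0.168.

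Egr1, the member best known as a rapid and short-lived response to mitogens, had log2 values of 8.11 and 8.19 with DCIR2-BDC, 8.56 and 8.63 with DEC-BDC, and 8.28 and 8.24 with PBS. Its arrays did not overlap between any 2 groups, with DEC-BDC highest and DCIR2-BDC lowest, but the group means spanned only 0.45.
The differences from PBS did not pass: the log2 change was -0.11 with DCIR2-BDC (95% interval -0.50 to 0.28, adjusted p = 0.768) and 0.34 with DEC-BDC (-0.05 to 0.73, adjusted p = 0.316). Egr4, the remaining gene of the family, which the Nab proteins do not bind, changed by 0.02 with DCIR2-BDC (adjusted p = 0.977) and by 0.18 with DEC-BDC (adjusted p = 0.722).

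Of the Nab corepressors only Nab2 passed against PBS, and only with DEC-BDC. Nab1 and Nab2 were not tested against each other. Nab2 had log2 values of 8.84 and 8.52 with DCIR2-BDC, 9.04 and 8.88 with DEC-BDC, and 8.09 and 8.07 with PBS. Every antibody array was higher than both PBS arrays, and every DEC-BDC array higher than both DCIR2-BDC arrays. With DCIR2-BDC the 1.51-fold difference from PBS lay at the threshold without passing (1.13 to 2.02, adjusted p = 0.0514), and it passed in 8 of 17 alternatives (adjusted p from 0.0226 to 0.298 over all of them). With DEC-BDC Nab2 was 1.84-fold higher than with PBS (1.38 to 2.45, adjusted p = 0.0163). That call was lost without PBS array 1 (adjusted p = 0.0642), PBS array 2 (0.0619), DEC-BDC array 1 (0.095) or DEC-BDC array 2 (0.051), and all alternatives spanned 0.00586 to 0.095.

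Nab1 had log2 values of 7.52 and 7.81 with DCIR2-BDC, 7.68 and 7.67 with DEC-BDC, and 7.91 and 7.77 with PBS. The DCIR2-BDC arrays overlapped both other groups, and the DEC-BDC arrays were below PBS by 0.09 or more. Neither difference from PBS passed, with log2 changes of -0.18 with DCIR2-BDC (-0.60 to 0.25, adjusted p = 0.63) and -0.16 with DEC-BDC (-0.59 to 0.26, adjusted p = 0.718). Chd4, the chromatin remodeller that Nab proteins recruit, changed by 0.48 with DCIR2-BDC (adjusted p = 0.117) and 0.47 with DEC-BDC (adjusted p = 0.184).

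**Figure D2:**
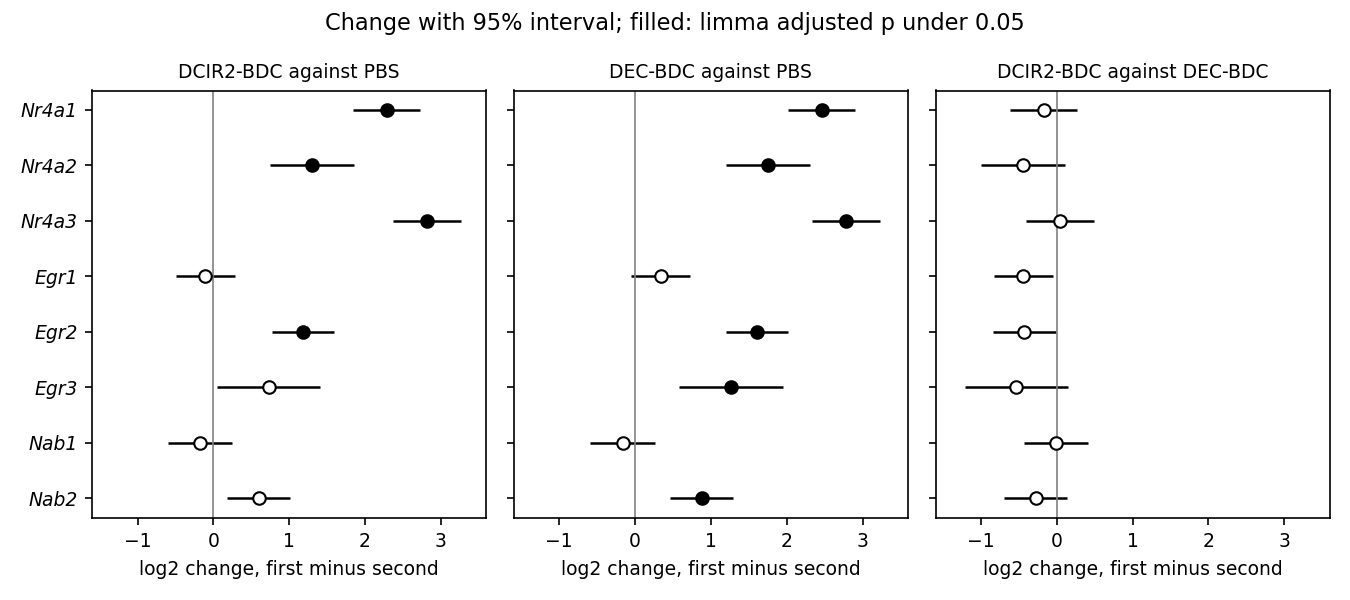
Log2 change of the 8 genes (rows) with its 95% interval (bars) in DCIR2-BDC against PBS, DEC-BDC against PBS and DCIR2-BDC against DEC-BDC, filled where the limma adjusted p is below 0.05. Filled points number 4, 6 and 0 in the 3 panels, and the intervals of Egr1 and Nab1 cross 0 in both panels against PBS.

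The promoters of Egr2 and of both Nab genes are shown as well. Egr2 has 5 annotated starts, of which start 3 is shown (chr10:67537619-67537918, plus strand), while Nab1 (chr1:52500399-52500698) and Nab2 (chr10:127666654-127666953) have 1 each, on the minus strand. RefSeq windows were matched for 6 of the 8 genes, and Egr1 and Egr3 are not shown. Capitals mark TGACG, GCGTGGGCG, GCGGGGGCG and the CArG box, the site of serum response factor, on either strand:
Egr2: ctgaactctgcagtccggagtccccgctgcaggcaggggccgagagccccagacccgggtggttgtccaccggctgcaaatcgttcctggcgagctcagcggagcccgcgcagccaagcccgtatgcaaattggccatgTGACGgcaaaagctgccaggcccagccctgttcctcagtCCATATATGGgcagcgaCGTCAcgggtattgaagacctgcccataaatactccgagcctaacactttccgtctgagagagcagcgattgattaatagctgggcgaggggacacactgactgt
Nab1: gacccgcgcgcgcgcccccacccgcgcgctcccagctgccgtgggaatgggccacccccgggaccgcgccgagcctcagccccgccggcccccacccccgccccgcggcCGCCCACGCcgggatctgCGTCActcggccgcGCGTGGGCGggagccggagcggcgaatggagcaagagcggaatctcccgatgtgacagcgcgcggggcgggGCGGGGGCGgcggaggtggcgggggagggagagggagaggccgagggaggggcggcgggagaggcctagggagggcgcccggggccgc
Nab2: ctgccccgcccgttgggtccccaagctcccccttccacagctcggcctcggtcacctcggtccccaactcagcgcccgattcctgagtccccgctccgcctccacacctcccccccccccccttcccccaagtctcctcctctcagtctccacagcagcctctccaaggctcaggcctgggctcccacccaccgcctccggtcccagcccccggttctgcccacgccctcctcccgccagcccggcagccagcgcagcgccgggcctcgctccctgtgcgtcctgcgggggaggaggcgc
The Egr2 window holds a CArG box at -72, found in 1.63% of windows, between TGACG matches at -111 and -55. The windows of starts 4 and 5 overlap this one and share these matches, and start 2 has another CArG box. The window of start 1 holds none of the motifs searched. The Nab1 window holds GCGTGGGCG at -141 and -109 and GCGGGGGCG at -38, and the Nab2 window holds none of the motifs searched. Sites outside the windows were not searched, and whether a match bears on expression was not tested. The core GGAAA, which NFAT factors bind, occurs in 61.3% of all windows, in those of Nr4a2 and Egr2 among the ones printed, and was not capitalised.

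The second question was whether the antibodies differed from each other. With DCIR2-BDC against DEC-BDC 0 of 8 genes passed in limma, where 0.0201% of all genes passed, and 2 of 8 (Egr1 and Egr2) had an unadjusted p below 0.05, where 10.2% of all genes did. The arrays of 4 of 8 genes, Egr1, Egr2, Egr3 and Nab2, did not overlap, all lower with DCIR2-BDC, where 40.2% of all genes did not overlap, 19.3% higher and 20.9% lower. A change of at least 2-fold was seen in 0 of 8, beside 0.341% of all genes. Egr1 was lower by a log2 change of -0.45 (95% interval -0.83 to -0.06, adjusted p = 0.428), Egr2 by -0.43 (-0.84 to -0.02, adjusted p = 0.475) and Egr3 by -0.54 (-1.22 to 0.15, adjusted p = 0.599). Nab2 stood at -0.28 (-0.70 to 0.14, adjusted p = 0.68), Nr4a2 at -0.45 (-1.0 to 0.11, adjusted p = 0.588) and Nr4a1 at -0.17 (-0.62 to 0.27, adjusted p = 0.841). Nr4a3 at 0.04 (-0.40 to 0.49) and Nab1 at -0.01 (-0.44 to 0.41) had the smallest differences, and both changed sign under another scaling of the arrays. The median of the 8 differences was -0.35, beside -0.01 over all genes. The intervals leave room for differences of up to 1.0 log2 unit in Nr4a2 and 1.22 in Egr3, so the antibodies are not shown to act alike on these genes.

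**Figure D3:**
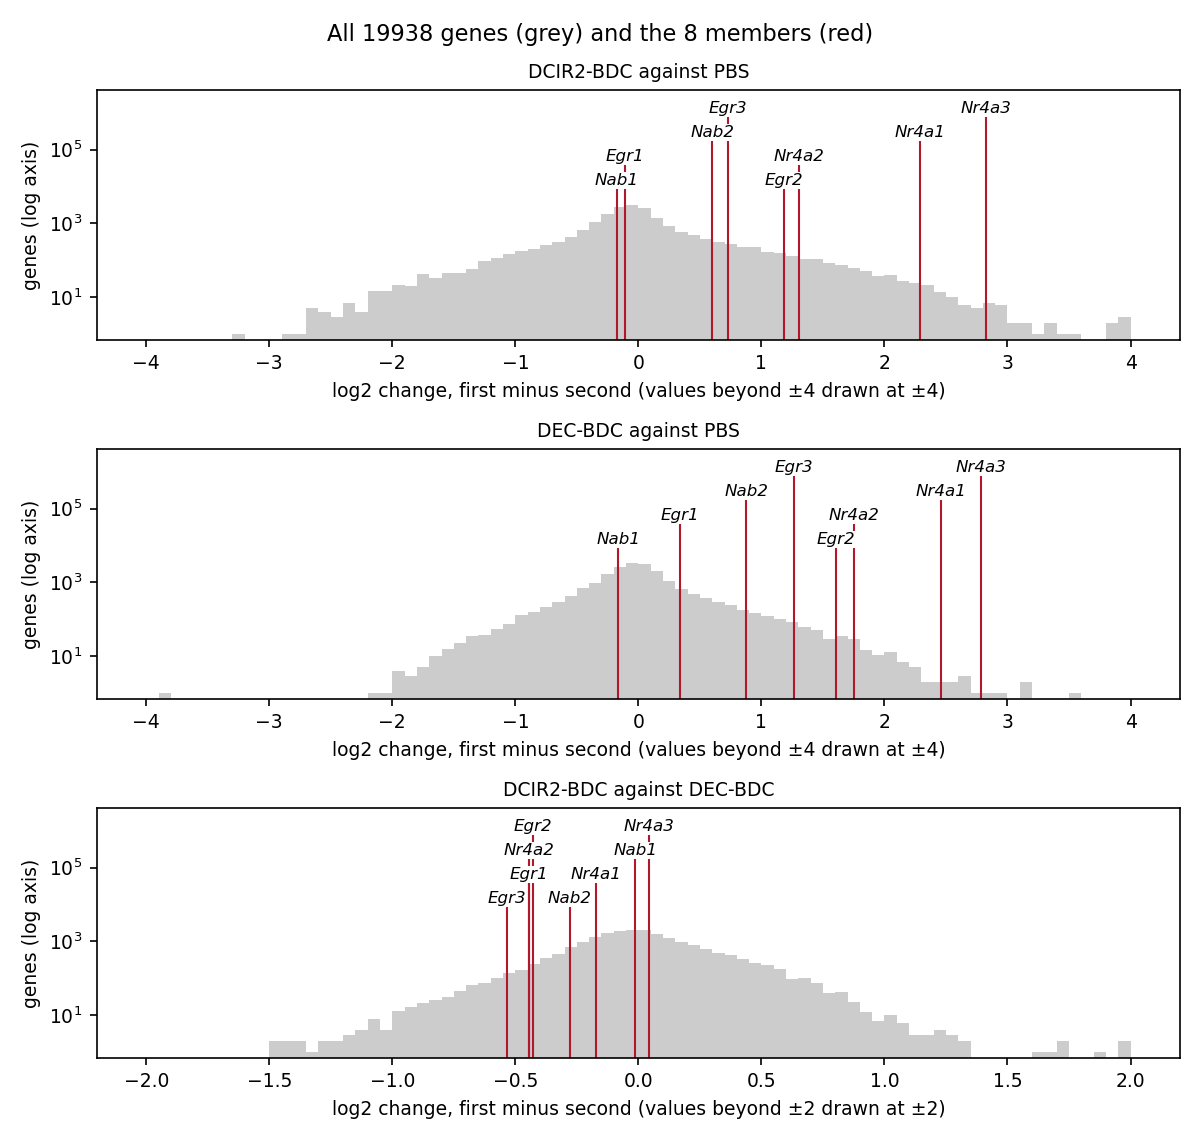
Numbers of genes (log axis) by log2 change in the 3 comparisons, with all 19938 genes in grey (values beyond the axis drawn at its end) and the 8 genes as red lines. Nr4a3 and Nr4a1 lie in the upper tail against PBS in both upper panels, and in the lowest panel (with a narrower axis) the 8 genes lie between -0.54 and 0.04.

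By pattern over the 6 arrays, each gene centred on its own mean, the genes nearest to Nr4a1 were Rrp15 (root mean square difference 0.19 log2 units), Rgs16 (0.24) and Umps (0.26). Nearest to Nr4a3 were Mettl1 (0.20), Eef1e1 (0.25) and Nr4a1 itself (0.26). Nearest to Nr4a2 were Snora73a (0.20), Mrpl15 (0.26) and Tspan5 (0.27), and nearest to Egr2 were Stap1 (0.20), Hivep3 (0.20) and Ccdc58 (0.20). Nearest to Egr3 were Snord73b (0.21), Pmvk (0.22) and Cenpk (0.23). Among the pairs within the set, Nr4a1 and Nr4a3 were closest after Egr1 with Nab1 (0.23), 2 genes that both moved little, while Egr2 and Egr3 stood 0.30 apart and Nr4a3 and Nab1 1.41. Egr1, Nab1 and Nab2 spanned less than 1 log2 unit between group means and were not matched to other genes.

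Other immediate-early genes went both ways at 14 h. Of 21 measured, 4 rose and 8 fell with DCIR2-BDC against PBS, and 3 rose and 5 fell with DEC-BDC. Of all genes 10.1% rose and 7.82% fell with DCIR2-BDC, and 5.32% rose and 3.53% fell with DEC-BDC. The median log2 change of the 21 was -0.51 with DCIR2-BDC, beside -0.05 over all genes, and -0.38 with DEC-BDC, beside -0.03. Myc, the growth regulator, rose by 2.74 with DCIR2-BDC (adjusted p = 0.000189) and by 2.06 with DEC-BDC (adjusted p = 0.0028). Fosl1, an AP-1 subunit, rose by 1.85 with DCIR2-BDC (adjusted p = 0.000468) and stood at 0.52 with DEC-BDC (adjusted p = 0.257). Fosl2 rose by 1.25 with DCIR2-BDC (adjusted p = 0.001035) and by 0.81 with DEC-BDC (adjusted p = 0.0225). Atf3 rose by 1.07 with DCIR2-BDC (adjusted p = 0.00137) and by 0.74 with DEC-BDC (adjusted p = 0.021). The AP-1 subunit Jun fell, with log2 changes of -1.52 with DCIR2-BDC (adjusted p = 0.000725) and -1.24 with DEC-BDC (adjusted p = 0.00639). Fos changed by -1.18 with DCIR2-BDC (adjusted p = 0.0119) and by -0.78 with DEC-BDC, which did not pass (adjusted p = 0.119). Klf2, a quiescence factor, fell in both (-1.90 with DCIR2-BDC and -1.08 with DEC-BDC), as did Klf6 (-1.73 with DCIR2-BDC and -1.10 with DEC-BDC) and the growth brake Btg2 (-2.03 with DCIR2-BDC and -1.08 with DEC-BDC). The expected direction of each gene was not used in this list. Its counts and median therefore do not measure an immediate-early response. The count with DEC-BDC was between 3 and 9 of 21 over the alternatives.

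**Figure D4:**
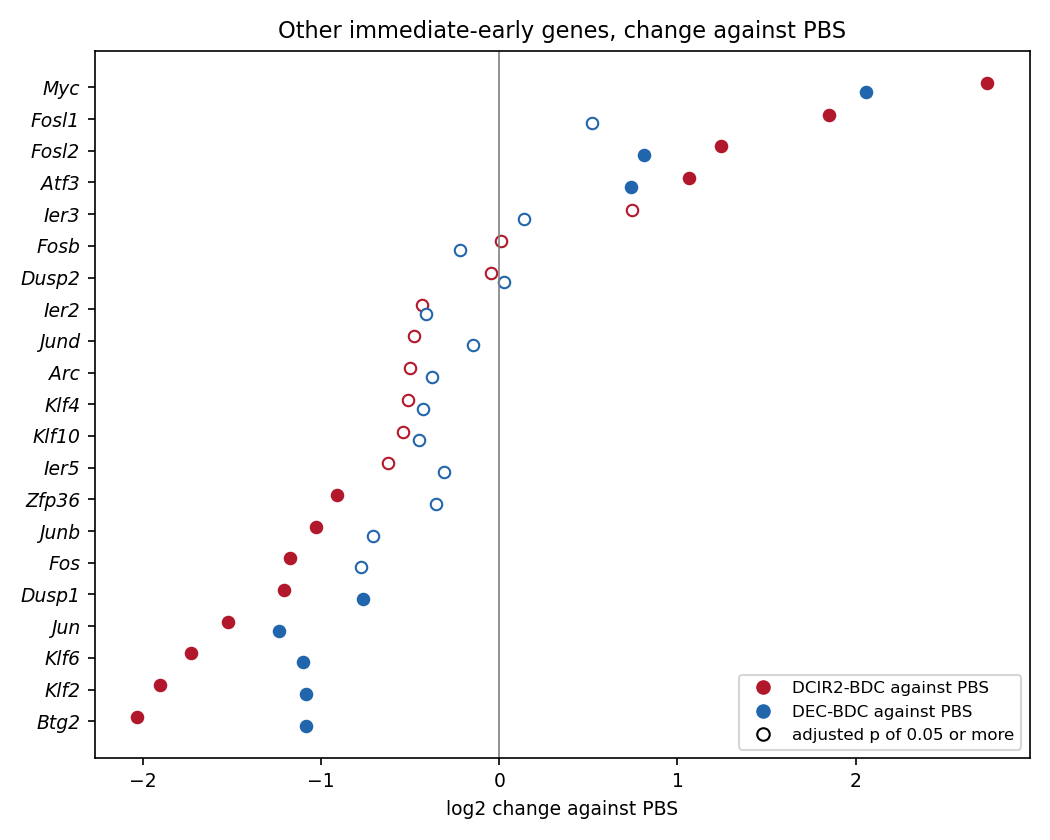
Log2 change against PBS of 21 other immediate-early genes (rows) with DCIR2-BDC (red) and DEC-BDC (blue), filled where the limma adjusted p is below 0.05. Myc lies farthest right at 2.74 and Btg2 farthest left at -2.03, both with DCIR2-BDC, and Fos and Jun lie left of 0 with both antibodies.

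Of 20 measured regulators and partners of the 2 families, 4 rose and 3 fell with DCIR2-BDC against PBS, and 2 rose and 0 fell with DEC-BDC. Of all genes 17.9% passed with DCIR2-BDC and 8.84% with DEC-BDC, so the 2 of 20 with DEC-BDC is a share near that of all genes. The median log2 change was 0.04 with DCIR2-BDC, beside -0.05 over all genes, and 0.09 with DEC-BDC, beside -0.03. Hdac7, a deacetylase that keeps Nr4a1 silent in thymocytes, rose by 1.90 on the log2 scale with DCIR2-BDC (adjusted p = 0.000289) and by 1.36 with DEC-BDC (adjusted p = 0.00526). Nfatc1, a calcium-driven factor that acts on both families, rose by 0.87 with DCIR2-BDC (adjusted p = 0.00931) and by 0.85 with DEC-BDC (adjusted p = 0.0207). Srf, which binds CArG boxes, rose by 1.01 with DCIR2-BDC (adjusted p = 0.00638) and stood at 0.61 with DEC-BDC (adjusted p = 0.113). Rasgrp1, which links the receptor to Ras, and the NFAT factor Nfatc3 fell with DCIR2-BDC. The log2 change of Rasgrp1 was -1.30 with DCIR2-BDC (adjusted p = 0.00257) and -0.81 with DEC-BDC, short of passing (adjusted p = 0.0544). That of Nfatc3 was -1.06 with DCIR2-BDC (adjusted p = 0.0022) and -0.65 with DEC-BDC, also short of passing (adjusted p = 0.0519). Rxra, a partner of Nr4a1 and Nr4a2, rose by 0.85 with DCIR2-BDC (adjusted p = 0.0115) and stood at 0.28 with DEC-BDC (adjusted p = 0.482). The count with DEC-BDC was between 1 and 4 of 20 over the alternatives, and with DCIR2-BDC between 4 and 8.

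Of 19 measured genes reported downstream of Egr2 and Egr3 in T cells, 6 rose and 3 fell with DCIR2-BDC against PBS, and 5 rose and 2 fell with DEC-BDC, where 17.9% of all genes passed with DCIR2-BDC and 8.84% with DEC-BDC. The median log2 change was 0.27 with DCIR2-BDC, beside -0.05 over all genes, and 0.29 with DEC-BDC, beside -0.03. The direction of each reported effect was not used in this list, so counts and median do not measure what Egr2 and Egr3 did. Ccl1, a chemokine, rose by 3.25 on the log2 scale with DCIR2-BDC and 1.64 with DEC-BDC, and Tnfrsf9, the costimulatory receptor 4-1BB, by 2.36 with DCIR2-BDC and 3.14 with DEC-BDC. Nrn1, a membrane protein found in anergic T cells, rose by 1.85 with DCIR2-BDC and 1.43 with DEC-BDC, and Sema7a, a membrane semaphorin, by 2.23 with DCIR2-BDC and 1.23 with DEC-BDC. The cell cycle inhibitor Cdkn1b fell (-2.20 with DCIR2-BDC and -1.31 with DEC-BDC). Dgka, the diacylglycerol kinase that Egr2 is known to raise in anergic cells, fell as well (-2.03 with DCIR2-BDC, adjusted p = 3.93e-05, and -1.21 with DEC-BDC, adjusted p = 0.00144). Cblb, a ubiquitin ligase linked to anergy, stood at -0.10 with DCIR2-BDC (adjusted p = 0.737) and 0.02 with DEC-BDC (adjusted p = 0.967). Lag3 rose by 1.34 with DCIR2-BDC (adjusted p = 0.000593) and 1.11 with DEC-BDC (adjusted p = 0.00494). Fasl rose by 1.16 with DCIR2-BDC (adjusted p = 0.043) and stood at 0.50 with DEC-BDC (adjusted p = 0.49). Socs3 changed by -1.23 with DCIR2-BDC (adjusted p = 0.028) and by -0.92 with DEC-BDC, which did not pass (adjusted p = 0.137).

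Of 18 genes reported downstream of the Nr4a receptors in T cells, 8 rose and 1 fell with DCIR2-BDC against PBS, and 5 rose and 1 fell with DEC-BDC, beside 17.9% of all genes passing with DCIR2-BDC and 8.84% with DEC-BDC. The median log2 change of the 18 was 0.39 with DCIR2-BDC and 0.18 with DEC-BDC. Here too the direction of each reported effect, a rise or a fall, was not used. The counts and the median therefore do not measure what the Nr4a receptors did. The growth factor gene Il2 rose by 5.31 on the log2 scale with DCIR2-BDC and 3.57 with DEC-BDC, the transcription factor Irf4 by 3.52 with DCIR2-BDC and 2.70 with DEC-BDC, and the inhibitory ligand Cd200 by 2.94 with DCIR2-BDC and 2.23 with DEC-BDC. Il2ra, a chain of the IL-2 receptor, rose by 2.33 with DCIR2-BDC and 1.69 with DEC-BDC. The inhibitory receptor Pdcd1 (PD-1) rose by 1.31 with DCIR2-BDC (adjusted p = 0.00669) and 1.0 with DEC-BDC (adjusted p = 0.0471). Tigit (1.25), Ifng (1.07) and Havcr2 (0.77) passed with DCIR2-BDC only, and stood at 0.29 (Tigit), 0.63 (Ifng) and 0.17 (Havcr2) with DEC-BDC. Runx1 was the gene that fell, by -0.83 with DCIR2-BDC and -0.69 with DEC-BDC (adjusted p = 0.0497). Foxp3, the regulatory T cell factor that Nr4a receptors can induce, stood at -0.26 with DCIR2-BDC (adjusted p = 0.472) and -0.32 with DEC-BDC (adjusted p = 0.44). Tox stood at -0.40 with DCIR2-BDC (adjusted p = 0.244) and 0.19 with DEC-BDC (adjusted p = 0.687).

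Of 16 measured surface and survival genes known to respond to the T cell receptor, 6 rose and 1 fell with DCIR2-BDC against PBS, and 5 rose and 1 fell with DEC-BDC, again beside 17.9% and 8.84% of all genes passing with DCIR2-BDC and DEC-BDC. The median log2 change of the 16 was 0.44 with DCIR2-BDC and 0.49 with DEC-BDC. Tnfrsf4, the costimulatory receptor OX40, rose by 2.64 on the log2 scale with DCIR2-BDC and 1.55 with DEC-BDC, and Tfrc, the transferrin receptor, by 2.37 with DCIR2-BDC and 1.81 with DEC-BDC. Tnfsf11 (RANKL) rose by 2.14 with DCIR2-BDC and 1.43 with DEC-BDC, and the NF-kB regulator Nfkbid by 1.89 with DCIR2-BDC and 1.48 with DEC-BDC. Il7r, a chain of the IL-7 receptor of resting T cells, was the gene that fell (-2.64 with DCIR2-BDC, adjusted p = 0.000136, and -1.88 with DEC-BDC, adjusted p = 0.00276). Cd69, an early activation marker, stood at 0.19 with DCIR2-BDC (adjusted p = 0.533) and 0.26 with DEC-BDC (adjusted p = 0.442). With DCIR2-BDC against DEC-BDC 0 genes of the 5 lists passed in limma. An unadjusted p below 0.05, found for 10.2% of all genes, was found for 8 of 21 immediate-early genes, 4 of 20 regulators and partners, 5 of 19 genes reported downstream of Egr2 and Egr3, 8 of 18 downstream of the Nr4a receptors and 4 of 16 receptor-induced genes.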

How the data were processed

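The authors' deposited table holds log2 expression values per probe set, made with RMA in Partek, per the submitters' processing notes. For its version and settings nothing is stated in the labels. RMA commonly scales arrays to one another, which can hide a change common to all genes. The deposited medians still differed, from 5.43 on DCIR2-BDC array 2 to 5.56 on PBS array 2. Per the labels' protocols, 5 ng of total RNA was amplified before labelling, which adds noise to dim genes. The platform annotation gave 1 symbol to 21789 of 35556 probe sets, and 19938 genes were tested. For the 999 genes with several probe sets the brightest on average was taken. Entrez identifiers matched 21698 probe sets to RefSeq (GRCm38.p6).

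The 6 arrays were fitted together in limma 3.58.1 under R 4.3.3, with a mean for each group, a variance trend, two-sided tests and Benjamini-Hochberg adjustment over all genes. P-values measure the spread between these arrays, of which the labels do not say how many mice each holds. Of same-numbered arrays the deviations from group means correlated at 0.145, 0.131 and 0.0714, so numbers were not taken to pair arrays. The alternatives were other probe set rules, scalings, dim-gene filters and variance models, array weights, 4 arrays only, a replicate block and each array left out. Replicate arrays shared at most 18 identical values. Promoter windows on chromosome 18 were left out.

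The 8 genes and all lists were chosen with earlier results of these data known. Named were the 8 genes, up to 4 genes of each pathway list (not of the marker lists) that passed with the largest change per comparison, given for both antibodies, and for each gene whose group means spanned at least 1 log2 unit the 3 nearest genes, leaving out symbols of the kinds Gm, LOC, Olfr, Vmn, Mir and Rik. Other genes of the lists, such as Egr4, Chd4, Rxra, Fos, Cblb, Foxp3, Tox and Cd69, were added after their values were seen. So were Fosl2, Atf3, Dgka, Lag3, Fasl, Socs3, Pdcd1, Tigit, Ifng, Havcr2, Runx1 and all cell type markers named. Listed genes whose symbol matched no measured gene were not analysed here.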

Additional observations from a re-analysis of the deposited data

How the results depend on the processing

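Over 17 alternatives the 8 genes gave 408 values in the 3 comparisons, of which 383 kept direction and side of the threshold, 10 were no longer past it, 10 came to pass and 5 changed sign. The changes of Nr4a1, Nr4a3 and Egr2 against PBS passed in all 17 for both antibodies, and Egr1 and Nab1 in none. The sign changes were in DCIR2-BDC against DEC-BDC, for Nr4a3 under quantile normalization (-0.051), when an array was left out (-0.14 to 0.22 over these), without DEC-BDC array 1 (-0.14) and without DCIR2-BDC array 2 (-0.09), and for Nab1 with arrays centred on their medians (0.026) and without DCIR2-BDC array 1 (0.13, with -0.15 to 0.13 over the arrays left out). Of the 8 genes, 3 to 6 passed with DCIR2-BDC against PBS, 4 to 6 with DEC-BDC against PBS and 0 with DCIR2-BDC against DEC-BDC.

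Of all genes, 3568 passed with DCIR2-BDC against PBS (2090 to 3885 over the alternatives, 2090 to 3637 when an array was left out, with 2285 without DCIR2-BDC array 1 and 2090 without DCIR2-BDC array 2). With DEC-BDC against PBS 1763 passed (997 to 2069, and 997 to 1367 when an array was left out, with 1013 without PBS array 1, 1131 without DEC-BDC array 1 and 997 without DEC-BDC array 2). With DCIR2-BDC against DEC-BDC 4 passed (7 and 9 after dropping the dimmest 30% and 50%, 0 with no trend, and 0 to 27 when an array was left out, with 1 without DEC-BDC array 1, 27 without DEC-BDC array 2 and 0 without either DCIR2-BDC array). With the replicate number as a block, which the array correlations did not bear out as a pairing, 2 genes passed with DCIR2-BDC against DEC-BDC. Egr3 with DEC-BDC against PBS then had a limma adjusted p of 0.00334, against 0.0293 without the block. Among the 8 genes against PBS the block changed the calls of Egr3 (adjusted p = 0.0207, range 0.0207 to 0.679) and Nab2 (0.0328, range 0.0226 to 0.298) with DCIR2-BDC and no other. Centring the arrays on their medians moved the median change of all genes with DCIR2-BDC against PBS to 0.06 (-0.05 as deposited), and the share of passing genes that were higher to 67.1% (56.3% as deposited). With DEC-BDC against PBS that share was 70.4% (60.1% as deposited). Where a lone array stands for a group it is assumed to vary like the other groups. The cause of these differences was not tested.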
